A study of Homo sapiens with 6 samples.

Results

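The human mitochondrial genome carries 37 genes, and every one of them was found among the 60546 gene identifiers of the RNA-seq table by a symbol that begins with MT-. They are 13 protein-coding genes, 2 ribosomal RNA (rRNA) genes and 22 transfer RNA (tRNA) genes. The 6 libraries came from HCT-116, an established human colon carcinoma cell line whose genotype is labelled wild type. In each group of 3, stable lines carried the viral vector PMSCV, with GOLPH3 in HCT-116-PMSCV-GOLPH3 and empty in HCT-116-PMSCV-Vector, and all were grown in serum-supplemented DMEM and lysed in Trizol. The study took the cells of each line from different generations, and the sample titles mark GOLPH3 libraries 1, 2 and 3 as P8, P12 and P13 and Vector libraries 1, 2 and 3 as P12, P11 and P13. The titles do not say what P stands for, and libraries are named below by group and P number. Each group is 1 stable line, so the spread between libraries is a spread between generations of the same line.

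Mitochondrial DNA is transcribed from both strands as long precursor RNAs. The tRNAs lie between most of the other genes and are cut out, which releases the 2 rRNAs and the mRNAs, and most of the mRNAs then receive a poly(A) tail. The mRNAs encode subunits of respiratory complexes I, III, IV and V, which are completed by subunits imported from the cytosol, while the rRNAs and tRNAs serve the ribosome of the organelle. Of the 37 genes, 28 are read from the heavy-strand transcript, and 9 genes, MT-ND6 and 8 tRNA genes, from the light-strand transcript.

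The genes whose results turn on sequence position are shown first. The following 5 tRNA genes, in GRCh38 with the transcript sequences of GENCODE 29, are the 4 called between P stages and MT-TN, the most abundant tRNA gene and a neighbour of MT-TC, and the capitals mark the anticodon.
MT-TC: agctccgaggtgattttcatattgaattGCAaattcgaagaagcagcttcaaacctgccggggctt
MT-TY: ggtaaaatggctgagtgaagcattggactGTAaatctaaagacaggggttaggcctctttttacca
MT-TL2: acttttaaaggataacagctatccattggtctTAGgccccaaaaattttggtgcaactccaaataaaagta
MT-TL1: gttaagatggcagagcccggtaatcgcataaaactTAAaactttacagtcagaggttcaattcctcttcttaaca
MT-TN: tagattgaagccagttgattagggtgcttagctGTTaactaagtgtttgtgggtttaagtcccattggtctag
MT-TC, the cysteine tRNA gene, lies at chrM:5761-5826 on the minus strand. MT-TY, the tyrosine tRNA gene, lies beside it at chrM:5826-5891, so that the neighbours share 1 base. MT-TN, the asparagine tRNA gene, lies at chrM:5657-5729 on the same strand, and the 31 bases between MT-TN and MT-TC are annotated to neither gene. The leucine tRNA genes MT-TL1, at chrM:3230-3304, and MT-TL2, at chrM:12266-12336, are on the plus strand and differ in their anticodons.

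Both mRNAs that are read together with the next gene are shown because their coding sequences overlap it. The capitals mark the bases that MT-ATP8 shares with MT-ATP6 and that MT-ND4L shares with MT-ND4.
MT-ATP8: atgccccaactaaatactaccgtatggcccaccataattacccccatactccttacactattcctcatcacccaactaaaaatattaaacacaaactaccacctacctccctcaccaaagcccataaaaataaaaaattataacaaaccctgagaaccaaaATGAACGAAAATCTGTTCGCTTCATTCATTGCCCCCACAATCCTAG
MT-ND4L: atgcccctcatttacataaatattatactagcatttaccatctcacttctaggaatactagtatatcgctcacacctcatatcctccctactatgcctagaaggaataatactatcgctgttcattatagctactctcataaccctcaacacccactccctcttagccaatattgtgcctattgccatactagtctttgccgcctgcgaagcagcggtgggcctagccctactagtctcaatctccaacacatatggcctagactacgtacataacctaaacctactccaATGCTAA
MT-ATP8, at chrM:8366-8572 on the plus strand, shares 46 bases (22.2% of its length) with MT-ATP6. MT-ND4L, at chrM:10470-10766, shares 7 bases with MT-ND4. Each of these pairs is present as 1 RNA in the cell, and a read in the shared bases can be counted to either gene, to both or to neither. Such a read is not resolved by the deposited values, and whether the counting used strand is not given in the sources used here.

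The libraries held 15708846 to 21900764 reads, recovered from the deposited normalized reads, in which each library's counts are divided by its own size factor. GOLPH3, the gene of the construct, was not higher in the libraries labelled GOLPH3 (1629.5, 1272 and 1383 at P8, P12 and P13) than in the libraries labelled Vector (1968, 1892 and 1472 normalized reads at P12, P11 and P13). The log2 difference was -0.31 (SE 0.27, limma, Benjamini-Hochberg adjusted p = 0.609 over 26536 genes), so groups are named by their labels. The keratins KRT8, KRT18 and KRT19 and EPCAM were abundant in every library, whereas KRT20 and CDX1 had at most 3 reads in every library. VIL1 (1.03 to 3.30 normalized reads) and CDH17 (0 to 9.66) were also low. CDX2 had 247, 261 and 358 normalized reads in GOLPH3 libraries (P8, P12, P13) and 415, 184 and 897 in Vector libraries (P12, P11, P13). Of 9 mesenchymal or neural genes tested, 7 were called lower in the libraries labelled GOLPH3, at an adjusted p under 0.05 from limma. The list summed to 966 to 1556 against 4462 to 12336 normalized reads. VIM, for example, had 5.37, 41.2 and 11.7 against 3407, 1653 and 3194 normalized reads. Of 10 colon epithelial genes tested, 2 were called higher. Of all 26536 genes tested, 1093 were called lower and 253 higher. The marker differences separate the groups in every comparison of GOLPH3 with Vector below, and their part in it was not tested. Of the 4 leukocyte genes, PTPRC, CD3E and CD68 were at or under 3 reads everywhere. The 4 summed to 2.47 to 4.29 normalized reads in GOLPH3 libraries and 17.5 to 50.6 in Vector libraries. Of the 2 tested, 1 was called lower in the libraries labelled GOLPH3. The part of this difference was not tested either, and the endothelial genes summed to 13.1 to 34.4 normalized reads.

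Mitochondrial transcripts took between 4.41% and 9.97% of all reads, and the high and low libraries fell in both groups. In the libraries labelled GOLPH3 the shares were 9.97% at P8, 4.41% at P12 and 9.75% at P13. In the libraries labelled Vector they were 7.08% at P12, 9.88% at P11 and 4.71% at P13. The groups overlapped, with means of 8.04% ± 3.15 (SD, n = 3) and 7.23% ± 2.59 (SD, n = 3). The difference of 0.818 percentage points was smaller than either SD. Within the P8 and P11 libraries the share differed by 0.0918 percentage points, whereas at P12 it was 2.68 lower and at P13 5.04 higher in the library labelled GOLPH3. The lowest libraries, GOLPH3 P12 and Vector P13, were also the most deeply sequenced, with 21900764 and 18627835 reads. The next deepest, GOLPH3 P13 with 18088184 reads, had a share of 9.75%. The part of depth in the share was not tested. A share of reads cannot tell apart fewer mitochondrial transcripts, more transcripts of other genes and less RNA per cell.

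**Figure D1:**
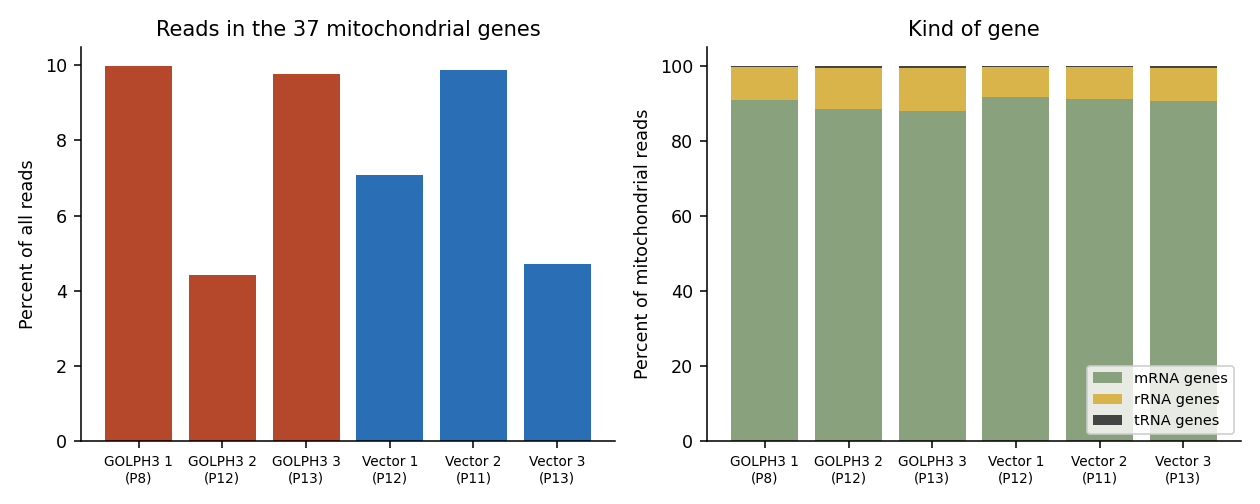
Left, bars give the percent of all reads of each library in the 37 mitochondrial genes, with GOLPH3 libraries in red and Vector libraries in blue. Right, bars split the mitochondrial reads of each library into mRNA, rRNA and tRNA genes. The GOLPH3 P12 library (4.41%) and the Vector P13 library (4.71%) are lowest in the left panel, and mRNA genes take 88.0% to 91.8% in the right panel.

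Within the mitochondrial reads, the 13 mRNAs took 91.1%, 88.7% and 88.0% in the libraries labelled GOLPH3 (P8, P12, P13) and 91.8%, 91.2% and 90.7% in Vector libraries (P12, P11, P13). The rRNAs, MT-RNR1 (12S) and MT-RNR2 (16S), took 8.69%, 10.9% and 11.6% against 7.91%, 8.42% and 8.76%. The rRNA share was higher in the library labelled GOLPH3 in each pair, by 0.275 at P8 against P11, 2.996 at P12 and 2.84 percentage points at P13. The ranges overlapped, since the P8 library lay below the Vector P13 library. The tRNA genes took 0.245% to 0.577%, on 3206 to 7529 reads per library. Whether the preparation selected RNA with poly(A) tails is not given in the sources used here, although the series describes the libraries as mRNA profiles. Genes on the light-strand transcript took 1.55% to 2.37%.

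Per length of gene, the mRNAs covered a wide range. MT-CO2, subunit 2 of cytochrome c oxidase (complex IV), had the highest mean of 226190 normalized reads per kb. MT-CO1, its catalytic subunit, followed with 178007, and then MT-CO3 with 173500 and MT-ATP6, a subunit of ATP synthase (complex V), with 173470. MT-ND4, a complex I subunit, had 123945 and MT-ND4L 102866 normalized reads per kb. MT-CYB, the only mitochondrial subunit of complex III, had 71707, MT-ND2 71321, MT-RNR2 67306, MT-ND3 50369, MT-ND1 48594, MT-ND5 46154 and MT-ND6 42828. Neighbours in this order had overlapping ranges over the 6 libraries, for example MT-CO3 and MT-ATP6. MT-ATP8 stood far below at 1502 normalized reads per kb although it shares its RNA with MT-ATP6. MT-RNR1 had 22634 normalized reads per kb, which is under its neighbour MT-RNR2 in every library.

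**Figure D2:**
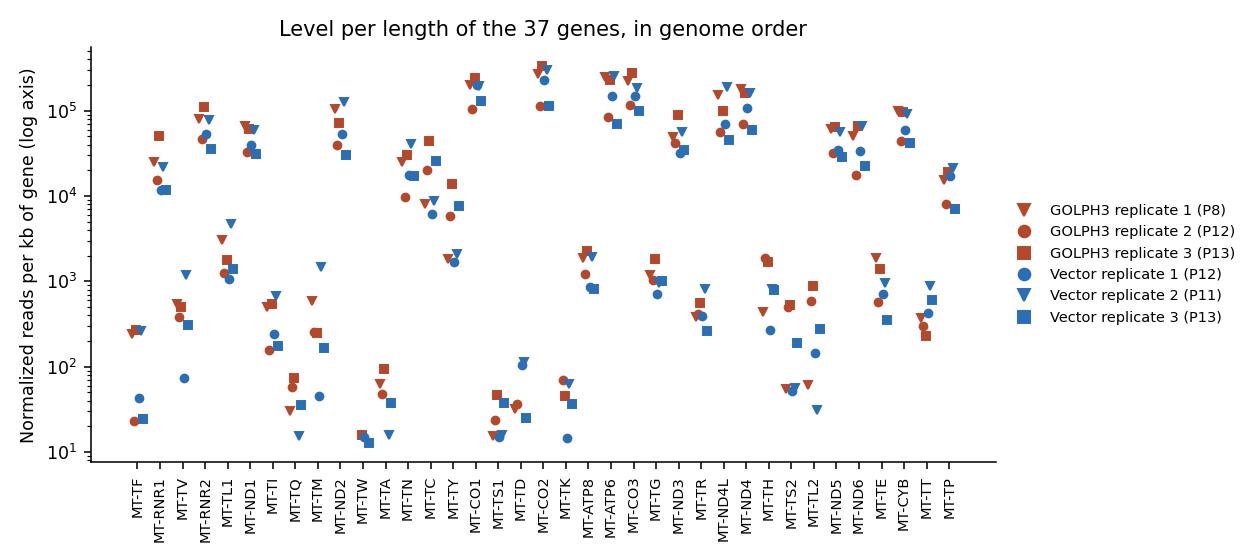
Points give normalized reads per kb of gene (log axis) of the 37 genes in genome order, with one point for each library, red for GOLPH3, blue for Vector and the shape giving the P number. Values of 0 are not drawn. MT-CO2 has the highest mean (226190), and MT-ATP8 (1502) lies far below the other mRNA genes.

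MT-ATP8 and MT-ND4L show how unevenly reads of 1 RNA were divided between its genes. Per base, MT-ATP8 had between 0.00588 and 0.0146 times the reads of MT-ATP6. The ratio of MT-ND4L to MT-ND4 per base was 0.842, 0.802 and 0.620 in the libraries labelled GOLPH3 (P8, P12, P13) and 0.646, 1.19 and 0.760 in Vector libraries (P12, P11, P13). It thus varied 1.92-fold across libraries although both are read from the same molecule, and the highest ratio was in the Vector P11 library. MT-RNR1 had 0.217 to 0.455 times the reads of MT-RNR2 per base, with the highest ratio in the GOLPH3 P13 library.

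The mRNAs were also described by their share of the reads in the 13 mRNA genes, a scale that does not move with the total mitochondrial share. MT-CO1 took most, with 19.5%, 22.9% and 22.6% in the libraries labelled GOLPH3 (P8, P12, P13) and 28.1%, 19.2% and 29.02% in Vector libraries (P12, P11, P13). MT-ND4 came second on the mean of 6 libraries, with 15.9%, 13.8% and 13.4% against 13.6%, 14.3% and 12.1%. The share of MT-ND4 fell from the lowest to the highest P number in both groups. MT-ND2, another complex I subunit, also fell with the P number in both groups, from 6.98% at P8 to 5.81% and 4.56% in the libraries labelled GOLPH3 and from 8.59% at P11 to 4.98% and 4.65% in those labelled Vector. MT-CO3, a complex IV subunit, rose in both groups, from 11.04% to 12.9% and 13.1% and from 9.25% to 10.4% and 11.3%. The other 10 mRNAs did not keep 1 order in both groups. These orders rest on 1 library per P number and group and were not tested. The shares of MT-CO3, MT-ND3 and MT-ND5 were also higher in all 3 of the most deeply sequenced libraries than in the others. Of the 13 shares, 0 were lower in all 3, and the part of depth was not tested.

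Grouped by complex, the 7 complex I genes took 32.2% to 40.3% of the mRNA reads and the 3 complex IV genes 41.7% to 52.6%. Complex IV took its lowest shares, 42.3% and 41.7%, in the P8 and P11 libraries, where complex I took 39.7% and 40.3%. The 2 complex V genes took 7.02% to 11.3%, with 10.9% and 11.3% in the P8 and P11 libraries. MT-CYB of complex III had the narrowest range, from 6.10% to 7.15%. By gene, MT-ND3 ran from 0.991% to 2.04%, MT-ND6 from 1.32% to 2.27% and MT-ND1 from 3.47% to 4.39%. MT-ND5 ran from 5.63% to 8.15%, MT-ND4L from 1.80% to 3.67% and MT-ATP8 from 0.0163% to 0.0361%. MT-CO2 took 11.03% to 14.1% and MT-ATP6 6.998% to 11.3%.

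**Figure D3:**
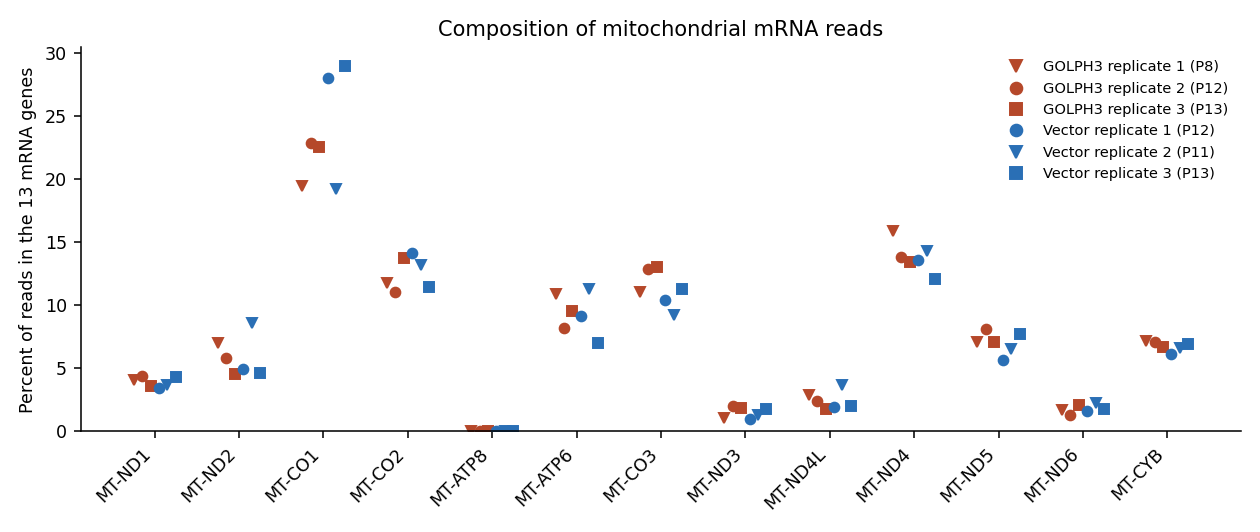
Points give each mRNA gene's percent of the reads in the 13 mRNA genes, with one point for each library, red for GOLPH3, blue for Vector and the shape giving the P number. MT-CO1 is lowest in the P8 and P11 libraries (19.5% and 19.2%), where MT-ND2 is highest (6.98% and 8.59%).

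To ask whether mitochondrial transcripts differed between the 2 lines, each gene was compared by limma on log2(normalized reads + 1). Of the 37 genes, 36 passed the filter on low values, and MT-TW, the tryptophan tRNA gene with at most 1 read in any library, did not. Of these 36, 0 were called at an adjusted p under 0.05, against 5.07% of all genes tested, and 0 had an unadjusted p under 0.05. edgeR and DESeq2 on the recovered reads also called 0. The share of all genes is not given here for the unadjusted, edgeR and DESeq2 counts. These counts are therefore not read as a trait of the members. Of the 36 differences, 30 were positive, with a median log2 difference of 0.36 against 0.02 over all genes. With 1 library left out, 21 to 34 were positive. The median was 0.71 without the GOLPH3 P12 library, 0.67 without the Vector P11 library, 0.15 without the GOLPH3 P13 library and 0.17 without the Vector P13 library. After quantile normalization, 21 of 36 were positive, with a median of 0.18. The groups did not overlap for 3 of 36 genes (8.33%), MT-TA, MT-TG and MT-TT, against 22.0% of all genes tested.

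The 13 mRNAs all had positive differences on the deposited scale, between 0.0015 for MT-CO1 and 0.65 for MT-ATP8, and none passed the test. MT-ND3 and MT-ATP8 kept this sign under all 15 alternatives, and the other 11 turned negative under 1 to 6 of them, among them leaving out single libraries. MT-CO1 had 305149, 161441 and 373580 normalized reads in GOLPH3 libraries (P8, P12, P13) and 310022, 298494 and 198238 in Vector libraries (P12, P11, P13), and the groups overlapped. The 95% confidence interval of its log2 difference ran from -0.94 to 0.94. MT-CO2 had 184036, 77796 and 227304 against 155949, 205120 and 78079 normalized reads, again with each group holding high and low libraries. MT-CO3 had 172902, 90956 and 216273 against 115107, 143488 and 77419 normalized reads. Its log2 difference was 0.47 (SE 0.42, adjusted p = 0.62), with an interval from -0.45 to 1.39.

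The complex I mRNAs showed the same overlap. MT-ND4 had 249559, 97303 and 222595 normalized reads in GOLPH3 libraries (P8, P12, P13) and 150235, 222321 and 82766 in Vector libraries (P12, P11, P13). MT-ND1 had 63548, 30996 and 59030 against 38376, 57265 and 29519 normalized reads. MT-ND5 had 110473, 57524 and 117861 against 62262, 101013 and 52654 normalized reads. For these 3 genes the GOLPH3 P12 library was below every other GOLPH3 library and the Vector P13 library was below every other Vector library. MT-ND3 had 17129, 14370 and 30609 against 10954, 19511 and 11993 normalized reads. MT-ND6, the one mRNA on the light-strand transcript, had 26271, 9313 and 34443 against 17810, 35153 and 11919 normalized reads. MT-ND6 was lowest in the GOLPH3 P12 and Vector P13 libraries, as were MT-ND1, MT-ND4 and MT-ND5, whereas MT-ND3 was lowest among Vector libraries at P12.

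The mRNAs of complexes III and V and MT-RNR2 were lowest in the same libraries. MT-CYB had 111947, 50067 and 111129 normalized reads in GOLPH3 libraries (P8, P12, P13) and 67383, 103103 and 47277 in Vector libraries (P12, P11, P13). MT-ATP6 had 170109, 57609 and 157636 against 100758, 174876 and 47809 normalized reads. MT-ATP8 had 389, 255 and 472 against 180, 403 and 166 normalized reads. Both genes of the ATP synthase RNA were lowest in the same GOLPH3 library, P12, and the same Vector library, P13. MT-RNR2 had 125518, 72000 and 170929 against 84074, 122242 and 54820 normalized reads. MT-RNR1 had 23971, 14803 and 47583 against 11152, 20846 and 11200 normalized reads, and its GOLPH3 P13 library was the highest of all. Its log2 difference of 0.90 (SE 0.43) had an adjusted p of 0.309 from limma. With the P stage (P8 with P11, P12, P13) as a block it was the only member called, at an adjusted p of 0.0447, where that fit called 5549 genes in all (20.9% of those tested).

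**Figure D4:**
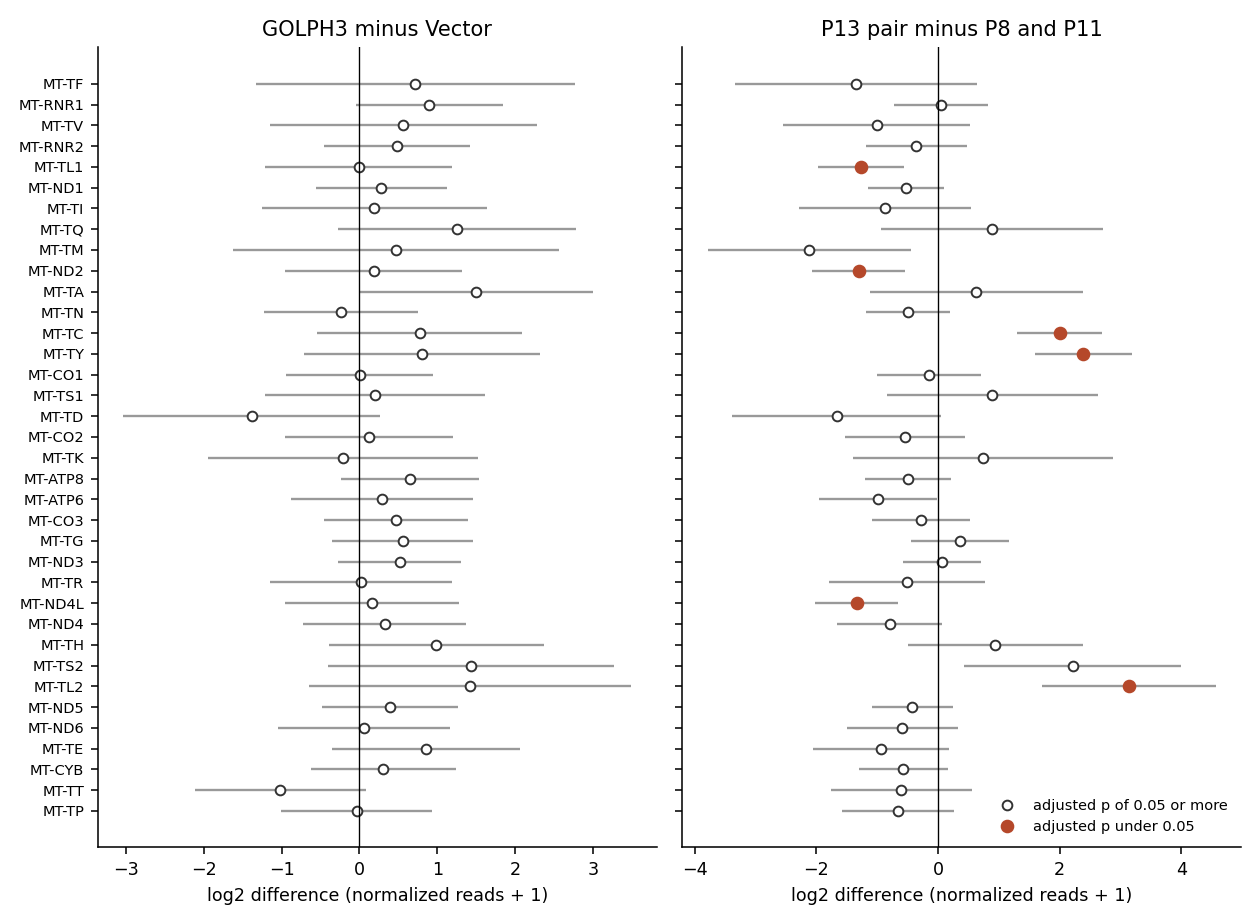
Points give the log2 difference of normalized reads + 1 for the 36 genes tested, in genome order, between the groups (left) and between the P13 pair and the P8 and P11 libraries (right), and lines give 95% confidence intervals from limma. Filled points have an adjusted p under 0.05: none on the left, and MT-TL1, MT-ND2, MT-TC, MT-TY, MT-ND4L and MT-TL2 on the right.

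The P12 pair and the P13 pair each held 1 library of each group. The remaining libraries, P8 and P11, carry different numbers and were put together as the third stage, so every statement by P stage rests on that choice. Stages were compared with the group as a covariate. In the P12 pair against the other 4 libraries, 32 of 36 differences were negative and the median log2 difference was -0.58. The median was -0.29 without the GOLPH3 P13 library, -0.93 without the Vector P12 library and -0.89 without the Vector P13 library, and 10 differences were positive without the GOLPH3 P12 library. Of the 36, 0 were called against 4.04% of all genes tested. There were 13 with an unadjusted p under 0.05 by limma, DESeq2 called 3 and edgeR 0. For these counts, and for those with a library left out, the share of all genes is not given here. They are therefore not read as a trait of the members. The smallest adjusted p from limma was 0.0557, for MT-TL1. The count depends on single libraries, since it was 17 without the Vector P13 library, 11 without the GOLPH3 P8 library, and 0 or 1 when another was left out.

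In the P13 pair against the P8 and P11 libraries, 6 of the 36 members were called (16.7%), against 16.9% of all genes tested, so the share of members called was near the background. Of the 6, 3 were higher, where 10.0% of all genes were called higher, and 3 were lower, where 6.84% were called lower. The higher genes were the tRNA genes MT-TC, MT-TY and MT-TL2. The lower genes were the mRNAs MT-ND2 and MT-ND4L and the tRNA gene MT-TL1. Both P13 libraries (18088184 reads in GOLPH3, 18627835 in Vector) were sequenced more deeply than the P8 (16069367) and P11 (15708846) libraries. In this comparison the P stage and sequencing depth therefore cannot be told apart.

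MT-TC (ENSG00000210140) had 535, 1326 and 2913 normalized reads in GOLPH3 libraries (P8, P12, P13) and 412, 583 and 1721 in Vector libraries (P12, P11, P13). Both P13 libraries were above every other library. The log2 difference was 2.002 (SE 0.32, limma, Benjamini-Hochberg adjusted p = 0.00283). MT-TY (ENSG00000210144), which lies next to MT-TC on the same strand, had 119, 382 and 903 against 112, 137 and 504 normalized reads, with the P13 libraries again highest. Its log2 difference was 2.39 (SE 0.37, adjusted p = 0.00263). With 1 library left out, the log2 difference stayed between 1.33 and 2.68 for MT-TC and between 1.64 and 3.14 for MT-TY. Leaving out a P12 library cannot change these estimates, which compare the P13 pair with the P8 and P11 libraries. Each fit with a library left out has a stage with only 1 library, so only the size of the difference is given. The ratio of MT-TY to MT-TC per base stayed between 0.223 and 0.310 in all 6 libraries.

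MT-TN, the asparagine tRNA gene 31 bases from MT-TC on the same strand, did not follow them. It had 1844, 714 and 2195 normalized reads in GOLPH3 libraries (P8, P12, P13) and 1292, 2948 and 1248 in Vector libraries (P12, P11, P13). Its log2 difference at P13 was -0.49 (SE 0.32, adjusted p = 0.332). The ratio of MT-TC to MT-TN per base was 0.321, 2.05 and 1.47 against 0.353, 0.219 and 1.53, a 9.39-fold range. The 3 libraries with a ratio over 1 were the GOLPH3 P12 and P13 libraries and the Vector P13 library. These were also the 3 most deeply sequenced libraries, and the part of depth in the ratio was not tested.

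MT-TL2 (ENSG00000210191), a leucine tRNA gene, had 4.29, 42.1 and 61.9 normalized reads in GOLPH3 libraries (P8, P12, P13) and 10.3, 2.19 and 19.7 in Vector libraries (P12, P11, P13). The P8 and P11 values are 4 and 2 reads, so its log2 difference of 3.14 (SE 0.66, adjusted p = 0.00799) rests on few reads in the lower pair. Without the GOLPH3 P13 library the log2 difference was nearly as large but the adjusted p was 0.0589. MT-TL1 (ENSG00000209082), the other leucine tRNA gene, moved the opposite way, with 232, 94.8 and 133 against 80.3, 355 and 105 normalized reads. It was highest in the P8 and P11 libraries, and its log2 difference was -1.27 (SE 0.32, adjusted p = 0.0192).

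MT-ND2 (ENSG00000198763) had 109387, 40973 and 75587 normalized reads in GOLPH3 libraries (P8, P12, P13) and 54972, 133245 and 31732 in Vector libraries (P12, P11, P13). It was highest in the P8 and P11 libraries, and the log2 difference at P13 was -1.30 (SE 0.35, adjusted p = 0.025). MT-ND4L (ENSG00000212907) had 45301, 16824 and 29758 against 20907, 56959 and 13558 normalized reads. Its log2 difference was -1.34 (SE 0.31, adjusted p = 0.0131). These 2 calls and that of MT-TL1 depended on single libraries. Without the Vector P13 library the adjusted p was 0.26 for MT-ND2, 0.115 for MT-ND4L and 0.175 for MT-TL1, and without the Vector P11 library it was 0.174, 0.0777 and 0.195. The median log2 difference of the 36 members, -0.50, became 0.29 without the Vector P13 library, -0.17 without the Vector P11 library and -1.10 without the GOLPH3 P13 library. MT-ND2 also missed the threshold with a pseudocount of 0.1 (adjusted p = 0.0566) and after quantile normalization (adjusted p = 0.0801).

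**Figure D5:**
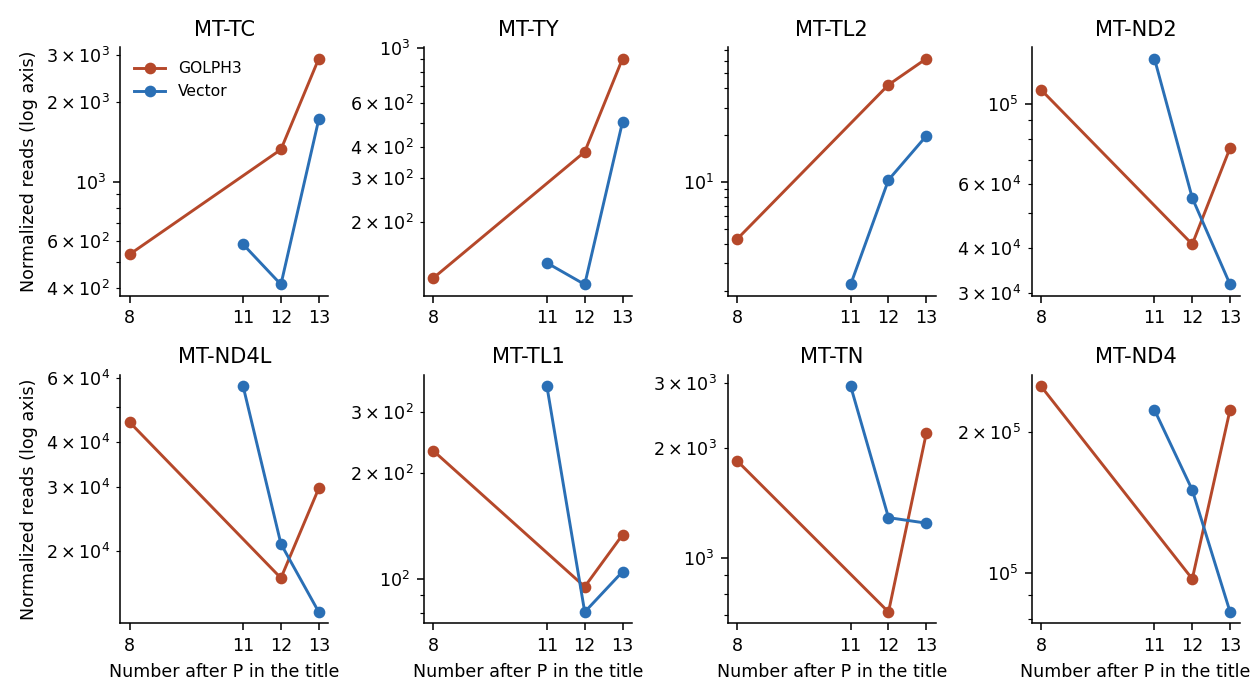
Panels give normalized reads (log axis) against the number after P in the sample title for 8 genes, with the libraries of each group joined by a line, red for GOLPH3 and blue for Vector. The lines join separate libraries and are not a time course of 1 culture. MT-TC, MT-TY and MT-TL2 are highest at P13 in both groups, and MT-ND2, MT-ND4L and MT-TL1 are highest at P8 or P11.

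The remaining tRNA genes were low and uneven. MT-TN, MT-TC, MT-TP, MT-TY and MT-TL1 together took 87.7% to 93.3% of all tRNA reads, and 4 of these 5 lie on the light-strand transcript. MT-TP, the proline tRNA gene, had 1052, 552 and 1285 normalized reads in GOLPH3 libraries (P8, P12, P13) and 1183, 1437 and 473 in Vector libraries (P12, P11, P13). It was lowest in the GOLPH3 P12 and Vector P13 libraries. Another 11 tRNA genes had means between 10 and 100 normalized reads, and 6 (MT-TQ, MT-TW, MT-TA, MT-TS1, MT-TD and MT-TK) had means under 10, with at most 7 reads in any library. For those 6 a level that is 0 in a library may be up to 3 reads, and this limit covers counting error only. Of the 36 genes tested, 6, MT-TQ, MT-TC, MT-TY, MT-TS1, MT-TS2 and MT-TL2, were higher in all 3 of the most deeply sequenced libraries than in the other 3, against 9.23% of all genes tested, and 0 were lower. The part of depth was not tested. This grouping by depth was made after the values were seen.

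Copies of mitochondrial genes in the nuclear genome share reads with the genes themselves. Of 408 such copies in the annotation, 300 had no reads in any library, and 3 held 98.0% of the reads in copies. MTATP6P1, at chr1:633696-634376, is identical to MT-ATP6 at 98.5% of bases and had 5.54% to 10.5% of the normalized reads of MT-ATP6. MTND2P28 had 5.62% to 8.77% of those of MT-ND2, and its log2 difference at P13 was -1.17 (SE 0.29, adjusted p = 0.0173 from limma), in the direction of MT-ND2. Without the Vector P13 library it was -0.59 (adjusted p = 0.182). MTCO1P12 had 0.0962% to 0.232% of those of MT-CO1, and was higher at P13 by a log2 difference of 0.97 (SE 0.24, adjusted p = 0.0172). Without the GOLPH3 P13 library it was 0.66 (adjusted p = 0.206), and after quantile normalization the adjusted p was 0.0628. Reads that fit both a copy and its gene cannot be told apart in these values.

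The nuclear genes that serve the same genome were compared as 4 lists. Between groups, 1 of 32 transcription and replication factors, and none of 48 RNA processing factors, 76 mitochondrial ribosomal proteins and 76 nuclear-encoded respiratory chain subunits, passed the test by limma. Their median log2 differences were -0.12, -0.12, 0.07 and 0.07, beside 0.36 for the mitochondrial genes and 0.02 for all genes. The 1 gene was PPARGC1A, which encodes a coactivator of mitochondrial gene programmes. It had no reads in GOLPH3 libraries and 37.1, 16.4 and 41.2 normalized reads in Vector libraries (P12, P11, P13), so its level was at least 10.6-fold lower in the former, against a limit of 3 reads per library. It passed the filter on low values only through the Vector libraries, where it is high, so its call is a description and adds no support to the list. With the P stage as a block, 13 of 32 (40.6%), 8 of 48 (16.7%), 12 of 76 (15.8%) and 12 of 76 (15.8%) genes of the 4 lists were called, against 20.9% of all genes tested by that fit.

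Within the lists, 3 factors of mitochondrial transcription or mRNA stability missed the threshold between groups without the block, and 2 of them passed it with the block. TFAM, which packages mitochondrial DNA and starts its transcription, had 1260, 953 and 754 normalized reads in GOLPH3 libraries (P8, P12, P13) and 1658, 2035 and 1264 in Vector libraries (P12, P11, P13), with a log2 difference of -0.74 (SE 0.31, adjusted p = 0.227). POLRMT, the mitochondrial RNA polymerase, had 2907, 3176 and 5722 against 2219, 1378 and 3551 normalized reads. LRPPRC, which stabilizes mitochondrial mRNAs, had 8236, 6744 and 4363 against 8770, 10672 and 5459 normalized reads. With the P stage as a block the adjusted p from limma was 0.00351 for TFAM (log2 difference -0.74, lower in the GOLPH3 library of all 3 pairs), 0.00437 for POLRMT (0.76, higher in all 3 pairs) and 0.0986 for LRPPRC (-0.36). At P13, POLRMT was higher by 1.17 (SE 0.19, adjusted p = 0.00301), while TFAM fell by 0.71 (SE 0.18, adjusted p = 0.0181) and LRPPRC fell by 0.94 (SE 0.17, adjusted p = 0.00478) on the log2 scale. Without the Vector P13 library the log2 difference of TFAM was again -0.71, but it missed the threshold. With 1 library left out, the log2 difference stayed between 0.93 and 1.41 for POLRMT and between -0.97 and -0.92 for LRPPRC. Leaving out a P12 library cannot change these estimates.

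The other genes chosen by the smallest p of each list also missed the threshold between groups in the fit without the block. With the P stage as a block, all of those given next but COX7A1 (adjusted p = 0.108 from limma) passed it. They were chosen by the smallest p of the same comparison in the same libraries, so their passing adds no support. That fit called 20.9% of all genes tested. The helicase DNA2 had a log2 difference of -1.03 (adjusted p = 0.106) and the nuclear receptor ESRRA 1.13 (adjusted p = 0.189). TRMT10C, a subunit of the mitochondrial RNase P that cuts tRNAs from the precursor, differed by -0.88 (adjusted p = 0.126), ANGEL2 by -0.82 (adjusted p = 0.143) and the nuclease EXOG by -0.82 (adjusted p = 0.246). Of the ribosomal proteins, MRPS33 differed by -0.82 (adjusted p = 0.124), MRPL37 by -0.67 (adjusted p = 0.221) and MRPL43 by 0.74 (adjusted p = 0.278). Of the respiratory chain genes, DMAC2L differed by -1.13 (adjusted p = 0.0906), NDUFA13 by 1.06 (adjusted p = 0.202) and COX7A1 by 1.84 (adjusted p = 0.211).

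Between the P13 pair and the P8 and P11 libraries, the nuclear-encoded subunits and the mitochondrial genes had medians of opposite sign, which depended on 1 library. Beside 10.0% of all genes called higher and 6.84% called lower, 30 of 76 nuclear-encoded respiratory chain subunits were higher and 1 was lower, with a median log2 difference of 0.52. Of 76 mitochondrial ribosomal proteins, 20 were higher and 2 were lower, with a median of 0.46. Transcription and replication factors (5 higher, 6 lower of 32) and RNA processing factors (8 higher, 7 lower of 48) had medians of -0.03 and -0.05. For the 36 mitochondrial genes the median was -0.50, for the 13 mRNAs among them -0.54, and for all genes 0.06. The difference between the lists was not tested, and the mitochondrial median rests on the Vector P13 library, as given above. Leaving it out gave a median of 0.29 for the mitochondrial genes and 0.52 for the nuclear-encoded respiratory chain subunits, no longer of opposite sign. Without that library, where 4.54% of all genes were called higher and 3.61% lower, the respiratory chain subunits had 20 higher and 0 lower, the ribosomal proteins 17 higher and 0 lower, the RNA processing factors 3 higher and 1 lower, and the transcription and replication factors 3 higher and 3 lower.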

How the data were processed

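The authors sequenced RNA of 6 HCT-116 libraries, 3 per group. What they deposited, a signal per gene and library, is a normalized read count, in 60590 rows for 60546 identifiers, of which 44 occurred in a second row that was summed with the first. The submitters' processing notes name fastp 0.20.0, HISAT2 2.1.0, Cufflinks, featureCounts 1.6.1, DESeq2 and GRCh38, without their order. In every library 100% of nonzero values were whole multiples, within a tolerance of 0.1, of a step of 0.8246 to 1.0955, so reads were recovered by division. The values carry no correction for gene length. Coordinates, lengths and sequences came from GENCODE 29, which held 96.4% of identifiers.

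Values were compared with limma 3.58.1 in R 4.3.3, with a mean-dependent prior variance, on log2(value + 1) in the 26536 genes that reached 1 in 3 or more libraries, so differences of low genes are understated. P-values were adjusted over all genes tested by the Benjamini-Hochberg method, and p under 0.05 was called. P stages were compared with the group as a covariate. Sums and shares were not tested. edgeR 4.0.16 and DESeq2 1.42.0 were run on recovered reads as alternatives, beside other filters, a pseudocount of 0.1, other scalings, a threshold of 0.01, blocks and each library left out. Scripts were tested on simulated data.

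The genes named are the mRNAs and rRNAs, the 5 tRNA genes with the highest mean, tRNA genes called in a comparison, the 3 genes of each nuclear list with the smallest p together with TFAM, POLRMT and LRPPRC, the 3 nuclear copies with the highest mean, and GOLPH3. Genes named outside this rule were chosen after their values were seen. The members and lists were chosen with earlier results of these data known. No libraries of a group agreed within sampling noise (chi-square per degree of freedom of at least 65.4). Nothing states separate cultures beyond the generations, so p-values measure the spread between these libraries, which may be technical. Of the pairs with the same replicate number, replicates 1 and 2 deviated in opposite directions (correlations of -0.232 and -0.151) and replicate 3, where both libraries are P13, together (0.259), so the numbers were not taken to pair the samples. The P8 and P11 libraries (0.331) and the P12 pair (0.256) also deviated together.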

Additional observations from a re-analysis of the deposited data

Results flagged for a closer look

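The difference between libraries labelled GOLPH3 and Vector took opposite directions at P12 and at P13. The mitochondrial share was 2.68 percentage points lower in the GOLPH3 library at P12 and 5.04 higher at P13. As GOLPH3 minus Vector these are -2.68 and 5.04 percentage points. Of the 36 genes tested, 17 did the same on the log2 scale. The share of all genes that did so is not given here, so this count is not read as a trait of the members. These genes are also parts of the mitochondrial share given above. The difference between stages was not tested, because each stage holds 1 library of each group. Among the mRNAs, the log2 differences at P12 and at P13 were -0.31 and 1.00 for MT-ND1, -0.42 and 1.25 for MT-ND2, -0.94 and 0.91 for MT-CO1, -1.003 and 1.54 for MT-CO2, -0.81 and 1.72 for MT-ATP6, -0.34 and 1.48 for MT-CO3. For the other mRNAs they were -0.31 and 1.13 for MT-ND4L, -0.63 and 1.43 for MT-ND4, -0.11 and 1.16 for MT-ND5, -0.94 and 1.53 for MT-ND6, -0.43 and 1.23 for MT-CYB. For the rRNA gene MT-RNR2 they were -0.22 and 1.64. Among the tRNA genes they were -0.63 and 2.90 for MT-TF, -0.58 and 1.56 for MT-TI and -0.85 and 0.81 for MT-TN. For MT-TE they were -0.31 and 1.94 and for MT-TP -1.10 and 1.44. The values of MT-TF rest on few reads. It had 2 reads in the GOLPH3 and 3 in the Vector library at P12, and 18 and 2 at P13. MT-TC and MT-TY were not among the 17 genes, since their levels were higher in the GOLPH3 library at both stages. The 2 low libraries were GOLPH3 P12 and Vector P13, and what sets them apart was not tested. They were also the most deeply sequenced, with 21900764 and 18627835 reads. The next deepest, GOLPH3 P13 with 18088184 reads, was not low.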

How the results depend on the processing

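Between groups, the count of mitochondrial genes called was 0 under the main design and every alternative, each library left out included, except the P stage as a block, which called 1. With the replicate block it was 0, and the replicate block changed no other call. For the P12 pair, no filter called 5, DESeq2 3, and leaving out 1 library gave 0 to 17. For the P13 pair, a threshold of 0.01 left 3, and leaving out 1 library gave 4 to 18. Transcription and replication factors went from 1 to 0 under the stricter filter, which leaves out PPARGC1A, to 13 with the P stage as a block, and to between 0 and 2 with 1 library left out. With that block the RNA processing list went from 0 to 8, the ribosomal proteins from 0 to 12 and the respiratory chain subunits from 0 to 12, all 3 under the 20.9% of all genes that this fit called, and DESeq2 called 1 of the last. The cause of the other changes was not tested. The share of all genes called is not given in this paragraph for the P12 and P13 pairs, nor between groups except for the P stage block. The share of reads differed by -0.438 to 2.64 percentage points and the rRNA share by 1.44 to 2.89 with 1 library left out. Leaving out a P12 library cannot change the estimates at P13. MT-TC and MT-TY kept their direction at P13 under all 14 alternatives, and their call under those that keep all 6 libraries. None of these separates the P13 stage from sequencing depth, since the P13 libraries were deeper than the P8 and P11 libraries. Depth limits the 6 tRNA genes with means under 10 normalized reads, and also MT-TF, which had 2 to 18 reads per library.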
